A study of Mus musculus with 4 samples.

Results

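The 10 genes described here are used to mark retinal ganglion cells and were chosen by name from the gene tables of a mouse retina RNA-seq series: Pou4f1, Pou4f2, Pou4f3, Isl1, Ebf1, Rbpms, Sncg, Thy1, Nefl and Nefm. All 10 were found, each with 1 line in every table, among 21828 genes analyzed. The rule names them and holds no threshold on a measured value. Retinas of FVB/N mice carrying the 2.5-kb Hes1 promoter in front of a destabilized EGFP (pHes1-EGFP) were taken at P1 or P4, with no treatment, dissociated with trypsin and sorted into EGFP-positive cells (pHes1_EPCs) and EGFP-negative cells (pHes1_ENCs). The 4 groups were P1 pHes1_ENCs, P1 pHes1_EPCs, P4 pHes1_ENCs and P4 pHes1_EPCs, all from transgenic animals, with 1 library each. The gate followed the activity of a promoter fragment in a transgene and not a ganglion cell marker, and the number of animals behind a library is not given in the sources used here. A group is a single library, so nothing could be tested between groups, and every difference compares libraries and is a description. Hes1 itself, which checks the sort, was at 16.6 FPKM in pHes1_ENCs and 105 FPKM in pHes1_EPCs at P1, and at 3.59 and 93.5 FPKM at P4.

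Ganglion cells are the output neurons of the retina, and their axons form the optic nerve. They are born before birth, downstream of the basic helix-loop-helix factor Atoh7, and many of them die in the days after birth. Pou4f2 and Isl1 work together early in their differentiation, Pou4f1 and Pou4f3 are POU factors of the same family expressed in overlapping subsets, and Ebf1 belongs to a helix-loop-helix family active in postmitotic neurons. Rbpms encodes an RNA-binding protein, Sncg encodes gamma-synuclein, Thy1 a cell surface glycoprotein, and Nefl and Nefm the light and medium neurofilament subunits of large axons. Several of these genes are also expressed elsewhere in or near the retina. Isl1 also marks ON bipolar cells and cholinergic amacrine cells, Ebf1 and Rbpms are expressed in mural cells of vessels, and neurofilaments occur in horizontal cells.

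Promoter sequences are shown for 4 of the genes, because the results turn on how Pou4f1, Pou4f2 and Sncg on one side and Isl1 on the other differed between P1 and P4. The RefSeq table (GRCm38.p6) has windows from 250 bases before to 50 bases after a transcription start. With Pou4f3 left out of the search, it gave 6 windows for 5 of the 10 genes. The windows shown are chr14:104467950-104468249 for Pou4f1, chr8:78436598-78436897 for Pou4f2, chr14:34374620-34374919 for Sncg and chr13:116309639-116309938 for Isl1, all on the minus strand and printed 5′ to 3′ along the gene. Capitals mark matches to the E-box CAGCTG, to the E-box CAGATG read on either strand, and to the N-box CACNAG, a sequence that Hes factors bind.
Pou4f1 promoter: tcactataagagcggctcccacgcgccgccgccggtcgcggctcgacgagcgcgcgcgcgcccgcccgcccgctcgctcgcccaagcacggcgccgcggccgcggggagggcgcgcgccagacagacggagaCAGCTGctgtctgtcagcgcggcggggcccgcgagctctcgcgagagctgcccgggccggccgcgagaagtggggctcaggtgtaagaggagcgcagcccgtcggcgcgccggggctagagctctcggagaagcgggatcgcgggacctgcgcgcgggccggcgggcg
Pou4f2 promoter: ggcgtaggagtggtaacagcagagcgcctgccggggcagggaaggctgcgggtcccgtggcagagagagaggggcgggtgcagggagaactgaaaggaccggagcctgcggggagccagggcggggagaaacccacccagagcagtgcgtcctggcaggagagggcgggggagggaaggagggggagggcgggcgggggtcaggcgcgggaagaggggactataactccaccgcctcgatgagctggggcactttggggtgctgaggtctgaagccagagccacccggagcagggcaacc
Sncg promoter: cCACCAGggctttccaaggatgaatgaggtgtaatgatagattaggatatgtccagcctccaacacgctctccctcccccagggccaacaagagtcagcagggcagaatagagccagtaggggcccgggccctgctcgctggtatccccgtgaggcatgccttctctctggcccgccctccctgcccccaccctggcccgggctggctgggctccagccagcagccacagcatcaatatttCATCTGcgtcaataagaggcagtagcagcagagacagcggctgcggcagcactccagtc
Isl1 promoter: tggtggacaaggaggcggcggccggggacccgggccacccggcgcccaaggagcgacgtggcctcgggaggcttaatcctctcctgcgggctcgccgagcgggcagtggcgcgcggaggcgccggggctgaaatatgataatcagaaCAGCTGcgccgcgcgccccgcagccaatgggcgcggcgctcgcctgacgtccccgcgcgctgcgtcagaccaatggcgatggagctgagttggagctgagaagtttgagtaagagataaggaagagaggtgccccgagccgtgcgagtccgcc

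The windows shown were rich in G and C. The GC content was 78.3% for Pou4f1, 69.7% for Pou4f2, 61.3% for Sncg and 69.0% for Isl1, against a median of 52.7% over all 32851 windows of the table. CpG dinucleotides numbered 57, 18, 9 and 37 in the same order, against a median of 7. The 2 windows of Ebf1, which are not shown, had a GC content of 36.7% and 53.0% and held 9 and 17 CpG. Both strands were searched for the TATA box TATAAA, the E-boxes CAGCTG and also CAGATG, the palindrome CACGTG, the N-box CACNAG, the homeodomain core TAATTA and the core of Pou4f sites, ATAATTAAT. CAGCTG, which 16.3% of all windows held, was found at -118 for Pou4f1 and at -103 for Isl1, counted in bases before the start. In the Sncg window CAGATG was found on the other strand at -9 and CACNAG at -249, and these occur in 17.2% and 42.5% of all windows. No match was found for Pou4f2 or in the 2 windows of Ebf1. A match is a description of the sequence only, and neither binding nor use of a start was measured.

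FPKM counts sequenced fragments relative to the length of the transcript and to the size of the library, so levels can be compared between genes. Cufflinks gave each FPKM a 95% interval. The number of reads behind a value was inferred from the width of that interval, read as 2 SD of a Poisson count on either side, and is approximate. A ratio of FPKM between libraries is given with an exact 95% interval from these inferred reads, which covers counting error only and not variation between animals or sorts. The difference of a gene is that of log2(FPKM + 1), and a gene was called higher or lower past 1 on this scale, a 2-fold change. The libraries were of like depth, since the worth of 1 read differed by at most 1.06 times, and 11460 to 12109 genes reached 1 FPKM in a library. The ganglion cell genes were low. Their highest value was 11.2 FPKM, and 5 of the 10 were at or below 2.02 FPKM in all 4 libraries. For genes this low the pseudocount of 1 shrinks a difference, so a second rule without it was added after the data had been seen. It asks for a ratio of FPKM above 2 and for Cufflinks intervals that do not overlap.

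The genes are spread over 6 chromosomes of NCBI37/mm9. Chromosome 14 holds 4 of them, Pou4f1 (chr14:104861541-104867216, 3 exons, minus strand), Sncg (chr14:35183460-35187855, 5 exons, minus strand), Nefl (chr14:68701941-68705794, 4 exons, plus strand) and Nefm (chr14:68737602-68743061, 4 exons, minus strand). Pou4f2 (chr8:80956908-80960551, 2 exons) and Rbpms (chr8:34893116-35040313, 9 exons) lie on the minus strand of chromosome 8. Isl1 is at chr13:117088478-117099896 with 6 exons on the minus strand. Ebf1 is at chr11:44431636-44818674 with 16 exons, Thy1 at chr9:43851467-43856662 with 4 exons and Pou4f3 at chr18:42554251-42555747 with 2 exons, all on the plus strand. The library protocol in the labels does not keep the strand. An annotated Nefm model runs across Nefl on the opposite strand, and the noncoding genes Gm12158 and Gm17578 lie opposite to parts of Ebf1 and Rbpms. Reads from exons that such a pair shares could not be told apart. Only whole gene spans were compared, so whether exons overlap was not tested.

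**Figure D1:**
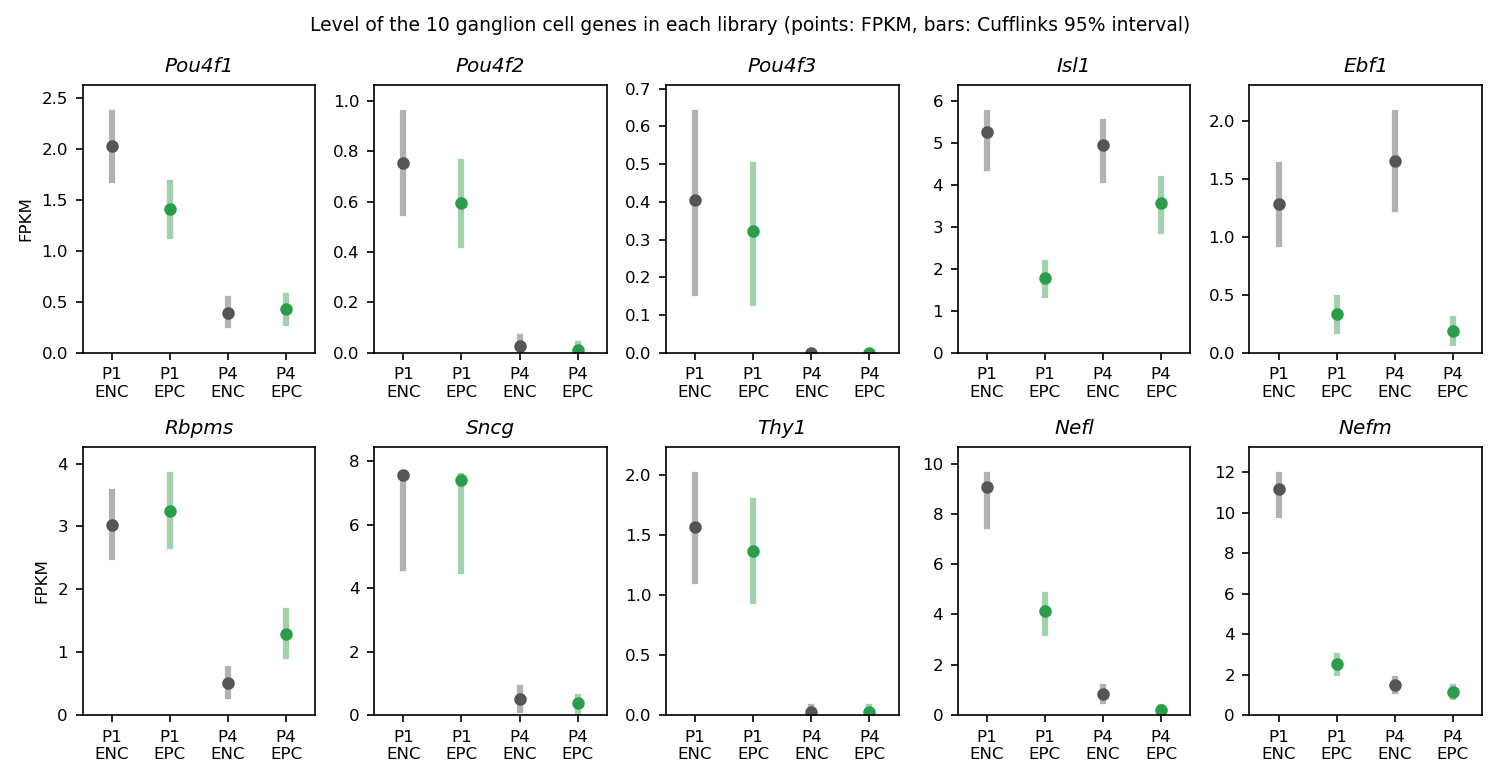
Level of each ganglion cell gene in FPKM (vertical axis, linear, own scale in each panel) in the 4 libraries, EGFP-negative cells (ENC) in grey and EGFP-positive cells (EPC) in green. Points are the FPKM and bars the Cufflinks 95% interval of 1 library. Isl1 is at 3.56 to 4.95 FPKM at P4, while Pou4f1, Pou4f2, Pou4f3, Thy1 and Sncg are at 0.519 FPKM or less in both P4 libraries.

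The comparison of pHes1_EPCs with pHes1_ENCs at P1 asks where transcripts of ganglion cells were found after a sort for Hes1 promoter activity. At P1, 6 of the 10 genes differed by less than 2-fold between the fractions: Pou4f1, Pou4f2, Pou4f3, Rbpms, Sncg and Thy1 had ratios of pHes1_EPCs to pHes1_ENCs of 0.697 to 1.07. The other 4, Isl1, Ebf1, Nefl and Nefm, were lower in pHes1_EPCs, with ratios of 0.224 to 0.455. This division was made after the values had been seen. Most genes of the series were not called between these fractions either. By the rule without the pseudocount 11.0% of all genes were lower in pHes1_EPCs and 9.2% higher. In a mixed sample fewer cells of a type and less RNA per cell cannot be told apart.

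Among the POU factors, Pou4f1 was at 2.02 FPKM in P1 pHes1_ENCs and 1.41 FPKM in P1 pHes1_EPCs, and at 0.393 and 0.428 FPKM at P4. Pou4f2 was at 0.756 and 0.595 FPKM at P1, and at 0.0261 and 0.0128 FPKM at P4. Pou4f3, which rested on 13 and 10 inferred reads, was at 0.405 and 0.323 FPKM at P1 and was listed at 0 in both P4 libraries. In all 3 the deposited P1 value was higher in pHes1_ENCs, while quantile normalization turned the log2 differences of Pou4f2 and Pou4f3 from -0.14 and -0.09 to 0.06 and 0.03. The ratio of pHes1_EPCs to pHes1_ENCs was 0.697 (0.542 to 0.886) for Pou4f1, 0.788 (0.527 to 1.17) for Pou4f2 and 0.798 (0.314 to 1.97) for Pou4f3. Only the interval of Pou4f1 lay below 1 among these 3, and on the log2(FPKM + 1) scale its difference was -0.33.

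Isl1, a LIM homeodomain factor, was at 5.25 FPKM in P1 pHes1_ENCs, 1.77 in P1 pHes1_EPCs, 4.95 in P4 pHes1_ENCs and 3.56 in P4 pHes1_EPCs. P1 pHes1_EPCs stood apart as the lowest of the 4, with a ratio to pHes1_ENCs of 0.338 (0.266 to 0.458). Ebf1 was at 1.28, 0.336, 1.65 and 0.188 FPKM in the same order. Both pHes1_EPC libraries were below both pHes1_ENC libraries for Ebf1, and the P1 ratio was 0.262 (0.129 to 0.455). At each age both factors were thus lower in the EGFP-positive library.

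Rbpms was at 3.02, 3.25, 0.508 and 1.29 FPKM in P1 pHes1_ENCs, P1 pHes1_EPCs, P4 pHes1_ENCs and P4 pHes1_EPCs. Sncg was at 7.56, 7.41, 0.519 and 0.363 FPKM, and Thy1 at 1.57, 1.37, 0.0256 and 0.0251 FPKM. For these 3 the P1 fractions were close, with ratios of 1.07 (0.836 to 1.37), 0.981 (0.716 to 1.42) and 0.873 (0.565 to 1.34), and all 3 intervals hold 1. The log2 difference of Thy1, -0.12, turned to 0.14 after quantile normalization. The FPKM of Sncg in P1 pHes1_ENCs lies above its own Cufflinks interval of 4.62 to 7.41, so its inferred reads are the least sure. An FPKM outside its interval was found on 9.06 to 10.4% of the gene lines of a library.

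The neurofilament genes were the highest of the 10 in P1 pHes1_ENCs. Nefm was at 11.2, 2.51, 1.47 and 1.16 FPKM, and Nefl at 9.08, 4.13, 0.852 and 0.214 FPKM. P1 pHes1_ENCs exceeded each of the other 3 libraries for both genes. The P1 ratio of pHes1_EPCs to pHes1_ENCs was 0.224 (0.187 to 0.279) for Nefm, the lowest of the 10, and 0.455 (0.382 to 0.585) for Nefl. On the log2(FPKM + 1) scale the differences were -1.79 and -0.97, so that Nefl lay just inside the threshold for a call.

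By the 2-fold rule 2 of the 10 genes, Isl1 and Nefm, were called lower in pHes1_EPCs at P1, and none higher. Over all genes 6.79% were called lower and 6.1% higher, and among the 12178 genes with a mean of at least 1 FPKM the shares were 11.3% and 10.7%. Without the pseudocount 4 of the 10 were lower, Isl1, Ebf1, Nefl and Nefm, where 11.0% of all genes were, and none was higher, where 9.2% were. The median difference of the 10 was -0.23, beside 0 for all genes and 0.03 for those with a mean of at least 1 FPKM. Summed over the 10 genes the level was 42.1 FPKM in pHes1_ENCs and 23.1 FPKM in pHes1_EPCs. In pHes1_ENCs the order by level was Nefm, Nefl, Sncg, Isl1, Rbpms, Pou4f1, Thy1, Ebf1, Pou4f2 and Pou4f3. The Cufflinks intervals of neighbours overlapped for Sncg and Isl1 and for each step from Pou4f1 down. In pHes1_EPCs the order was Sncg, Nefl, Rbpms, Nefm, Isl1, Pou4f1, Thy1, Pou4f2, Ebf1 and Pou4f3, and only Thy1 and Pou4f2 were neighbours with separate intervals.

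**Figure D2:**
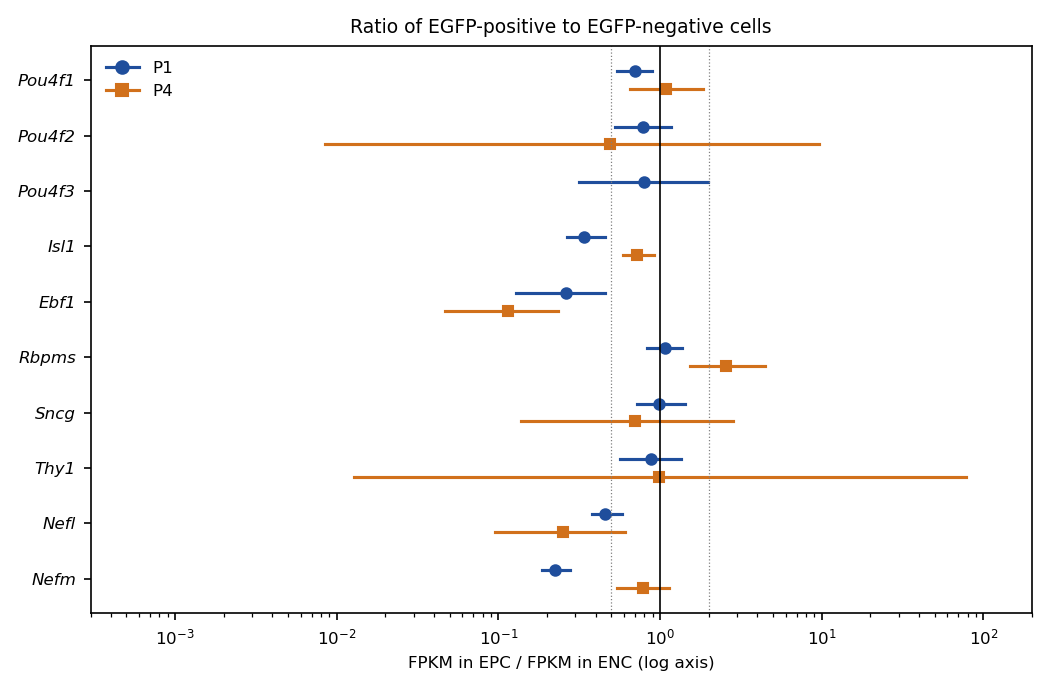
Ratio of FPKM in pHes1_EPCs to FPKM in pHes1_ENCs (horizontal log axis) for each ganglion cell gene at P1 (blue circles) and P4 (orange squares), with the exact 95% counting interval. The solid line marks equal levels and dotted lines a 2-fold difference, and Pou4f3 has no P4 point because it is listed at 0 in both libraries. Nefm, Ebf1, Isl1 and Nefl lie at 0.224 to 0.455 at P1, and Rbpms lies at 2.55 at P4.

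On the log2(FPKM + 1) scale other genes of ganglion cells and neurons differed more between the P1 fractions. The pseudocount shrinks the differences of the low ganglion cell genes. With plain ratios the median of the 10 was -0.43, and the medians of the other lists were not computed on that scale. Of 20 further factors of ganglion cell specification or subtype identity, 12 were called lower in pHes1_EPCs and none higher. Over all genes 6.79% were called lower and 6.1% higher. The median difference of the 20 was -1.33. Atoh7, the factor upstream of the POU genes, was at 77.3 FPKM in P1 pHes1_ENCs and 3.54 FPKM in P1 pHes1_EPCs, and at 6.82 and 1.71 FPKM at P4. The group with the highest levels also held Sox4 and Sox11, SoxC factors of newborn neurons, at 277 and 47.3 FPKM in P1 pHes1_ENCs against 86.6 and 23.8 FPKM in P1 pHes1_EPCs. Myt1 (48.5 and 2.92 FPKM), Barhl2 (28.0 and 1.79 FPKM) and Satb1 (17.9 and 9.67 FPKM) complete the 6 with the highest mean. All 6 were lower in pHes1_EPCs, Sox11 and Satb1 without passing the threshold.

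Of 24 further axon and ganglion cell markers, 13 were called lower in pHes1_EPCs at P1 and none higher, where 6.79% and 6.1% of all genes were. Their median was -1.27. Tubb3, a neuronal tubulin, was at 308 FPKM in P1 pHes1_ENCs and 20.5 FPKM in P1 pHes1_EPCs, and Stmn2, a growth cone protein, at 62.5 and 11.7 FPKM. Ina, the internexin that assembles with the neurofilament subunits, was at 50.1 and 4.91 FPKM, Elavl3 at 55.3 and 2.82 FPKM, and Mapt, which encodes tau, at 32.3 and 3.14 FPKM. Uchl1 differed least among the 6 with the highest mean, at 56.0 and 29.6 FPKM. Genes of this list with low levels differed among themselves between the P1 fractions, and those given here were picked after their values had been seen. Slc17a6, the vesicular glutamate transporter of ganglion cells, was at 0.654 and 0.491 FPKM, a ratio of 0.751 (0.521 to 1.05), and the nicotinic receptor gene Chrna6 was at 0.606 and 0.719 FPKM, a ratio of 1.19 (0.790 to 1.83). Chrnb3, another nicotinic receptor gene, was at 0.712 and 0.299 FPKM, a ratio of 0.419 (0.273 to 0.651). The axonal genes Kcna1 (2.05 and 0.0478 FPKM) and Cntn2 (0.667 and 0.0975 FPKM) were also lower in pHes1_EPCs. Of the 24 markers 4 had higher values in pHes1_EPCs: Chrna6, Rbpms2 (2.58 and 4.67 FPKM), Prph (0.186 and 0.828 FPKM) and Opn4 (0.0708 and 0.185 FPKM). Without the pseudocount 16 of the 24 were called lower and 1, Prph, higher, where 11.0% and 9.2% of all genes were. By the 2-fold rule 8 of 12 amacrine cell markers were lower in pHes1_EPCs, with a median of -2.50. Their summed level was 204 FPKM in pHes1_ENCs and 19.1 FPKM in pHes1_EPCs. Barhl2 is on this list and also among the further ganglion cell factors. Many of the 24 axon and ganglion cell markers are shared with amacrine cells, so these lists do not separate the cell types. Of 7 rod markers 6 were lower, with a median of -3.29.

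**Figure D3:**
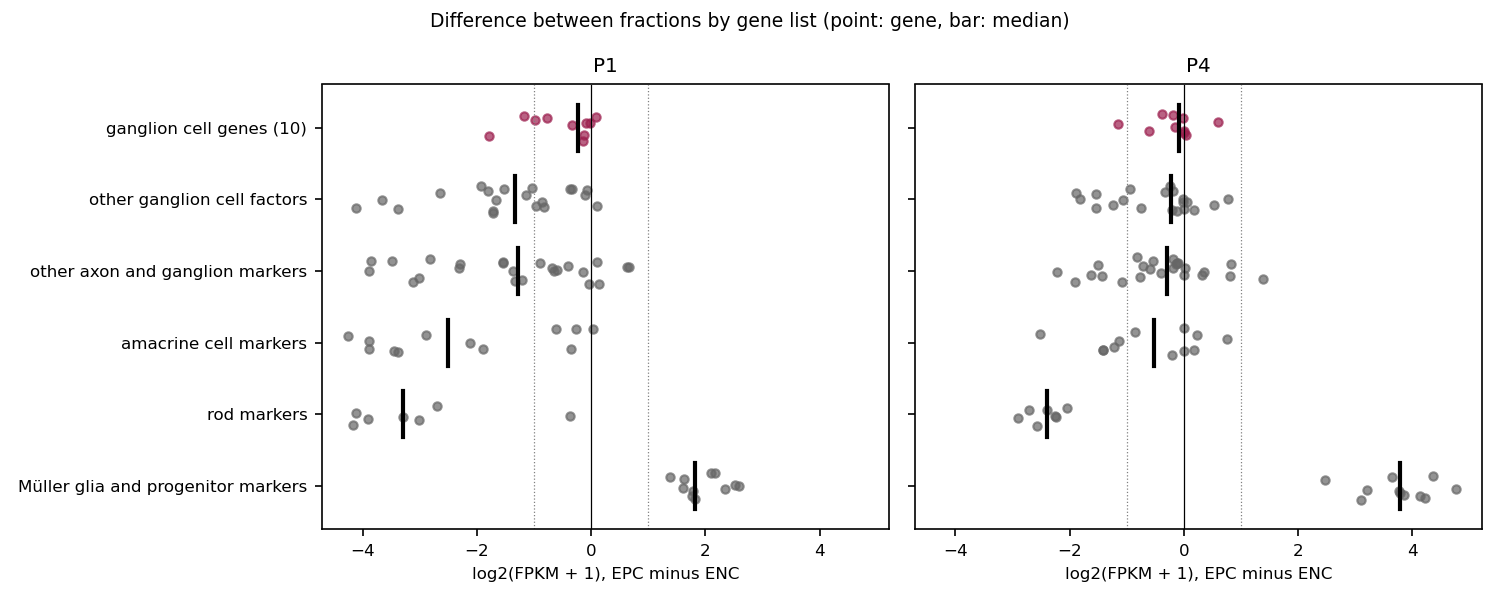
Difference between fractions on the log2(FPKM + 1) scale, pHes1_EPCs minus pHes1_ENCs (horizontal axis), at P1 and P4 for the 10 ganglion cell genes (red) and 5 other lists (grey), 1 point a gene, with the median of a list as a black bar. Dotted lines mark 2-fold. At P1 the median of the ganglion cell genes is -0.23, and those of the other factors, axon markers, amacrine markers and rod markers are -1.33, -1.27, -2.50 and -3.29. The pseudocount shrinks the differences of genes with low levels.

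Markers of cells other than neurons were measured beside these values. The 11 markers of Müller glia and progenitors were all called higher in pHes1_EPCs at both ages, with medians of 1.82 at P1 and 3.78 at P4. Over all genes 6.1% were called higher at P1 and 9.85% at P4. The 10 vessel and pericyte markers summed to 67.5, 217, 18.4 and 199 FPKM in P1 pHes1_ENCs, P1 pHes1_EPCs, P4 pHes1_ENCs and P4 pHes1_EPCs, most of it from Kdr. Cldn5, next after Kdr in mean FPKM, was at 16.3, 3.49, 2.59 and 4.06 FPKM in the same order. The defining endothelial gene Cdh5 was at most 0.071 FPKM and was listed at 0 at P4, and Pecam1 was at most 0.142 FPKM. The mural genes did not share 1 pattern. Pdgfrb was at 0.670, 1.68, 0.083 and 1.52 FPKM in the same order, and Cspg4 at 0.0974, 0.632, 0.0501 and 0.206 FPKM. Acta2 was at 3.16, 2.48, 3.33 and 3.64 FPKM, Rgs5 at 0.113, 0.142, 0.0978 and 0.144 FPKM and Des at 0.112, 0.0979, 0.0404 and 0.218 FPKM. The 5 astrocyte markers summed to 3.89 to 15.2 FPKM and the 5 microglia markers to 0.606 to 3.66 FPKM. The part of these cells in the values of Rbpms and Ebf1 was not tested.

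The comparison of P4 with P1 within a fraction follows the same genes through the first days after birth. In both fractions 8 of the 10 genes were lower at P4 than at P1. The fold of P1 over P4 was 2.17 to 61.1 among the 7 of them still above 0, and Pou4f3 was listed at 0 at P4. Isl1 and Ebf1 were the exceptions. The pHes1_ENC and pHes1_EPC comparisons share no library, but they are not taken as independent, because both fractions were sorted from dissociated retinas of these ages. In both comparisons animals and age cannot be told apart.

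In pHes1_ENCs Thy1 was 61.1 times (8.10 to 1903) higher at P1 than at P4 and Pou4f2 28.9 times (7.77 to 247). At P4 these values rested on 1 and 2 inferred reads, which is why the intervals are so wide. Sncg was 14.6 times (4.96 to 31.9) higher at P1, Nefl 10.7 times (6.71 to 15.4), Nefm 7.61 times (5.78 to 9.63), Rbpms 5.95 times (3.76 to 9.99) and Pou4f1 5.15 times (3.5 to 7.82). Isl1 and Ebf1 kept near the P1 level, with ratios of P1 to P4 of 1.06 (0.863 to 1.28) and 0.775 (0.536 to 1.11), and both intervals hold 1. The log2 difference of Isl1, -0.07, turned to 0.14 after quantile normalization.

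In pHes1_EPCs Thy1 was 54.5 times (7.0 to 1666) higher at P1 than at P4, Pou4f2 46.5 times (7.88 to 1860), Sncg 20.4 times (6.42 to 64.8) and Nefl 19.3 times (8.60 to 46.2). The remaining genes changed less. Pou4f1 was 3.29 times (2.21 to 4.94) higher at P1, Rbpms 2.51 times (1.80 to 3.48) and Nefm 2.17 times (1.56 to 3.01). Isl1 went the other way, 2.01 times (1.5 to 2.67) higher at P4, and Ebf1 was 1.78 times higher at P1 with an interval of 0.672 to 4.72 that holds 1.

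By the 2-fold rule 6 of the 10 genes were called lower at P4 in pHes1_ENCs, Pou4f1, Rbpms, Sncg, Thy1, Nefl and Nefm, where 5.94% of all genes were, or 9.93% of those with a mean of at least 1 FPKM. In pHes1_EPCs 3 were called lower, Sncg, Thy1 and Nefl, where 2.57% of all genes were, or 4.49% of those with a mean of at least 1 FPKM. No ganglion cell gene was called higher in either fraction, where 2.77% and 4.17% of all genes were, or 4.74% and 7.24% of those with a mean of at least 1 FPKM. Sncg, Thy1 and Nefl were lower in both fractions, as were 1.15% of all genes and 2.04% of those with a mean of at least 1 FPKM. Without the pseudocount the same 8 genes were called lower in both fractions, all but Isl1 and Ebf1, where 2.77% of all genes were. By this rule 11.2% of all genes were lower in pHes1_ENCs and 5.18% in pHes1_EPCs, and Isl1 was called higher in pHes1_EPCs, where 7.65% were. None was called higher in pHes1_ENCs, where 4.23% were. The median difference was -1.22 in pHes1_ENCs and -0.73 in pHes1_EPCs, beside 0 for all genes in both.

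**Figure D4:**
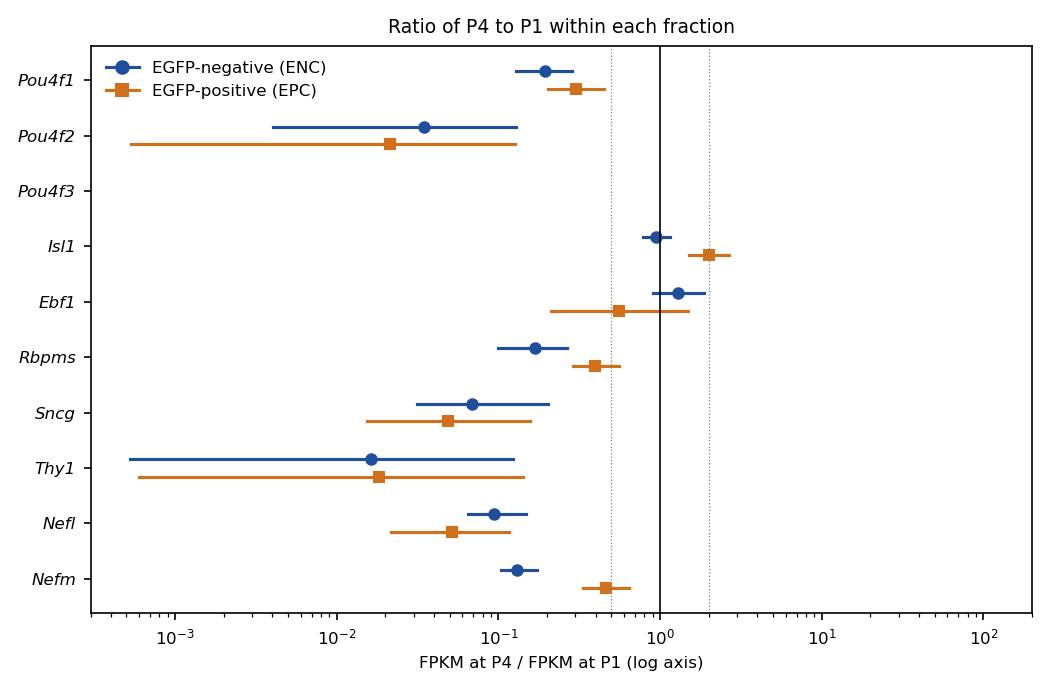
Ratio of FPKM at P4 to FPKM at P1 (horizontal log axis) for each ganglion cell gene in pHes1_ENCs (blue circles) and pHes1_EPCs (orange squares), with the exact 95% counting interval. The solid line marks no change and dotted lines a 2-fold change, and Pou4f3 has no point because it is listed at 0 at P4. All plotted genes but Isl1 and Ebf1 lie to the left of the lower 2-fold line in both fractions.

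The make-up of the summed level changed with it. The 10 genes summed to 10.4 FPKM in P4 pHes1_ENCs and 7.25 FPKM in P4 pHes1_EPCs, and 3 of the 10 were at 1 FPKM or more in each, against 8 and 7 at P1. Isl1 made up 12.5% of the sum in P1 pHes1_ENCs and 7.67% in P1 pHes1_EPCs, and 47.6% and 49.2% at P4. Isl1 was the highest of the 10 in both P4 libraries, and its Cufflinks interval stood clear of that of the next gene. The sum of the 5 transcription factors went from 9.71 to 7.03 FPKM in pHes1_ENCs and from 4.44 to 4.19 FPKM in pHes1_EPCs. That of Rbpms, Sncg, Thy1, Nefl and Nefm went from 32.4 to 3.37 FPKM and from 18.7 to 3.05 FPKM.

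Between the P4 fractions several genes differed by less than 2-fold. Pou4f1 had a ratio of pHes1_EPCs to pHes1_ENCs of 1.09 (0.654 to 1.85), and each of the 3 other scalings turned its log2 difference of 0.036 negative. Sncg had a ratio of 0.700 (0.138 to 2.81), Nefm 0.789 (0.546 to 1.14) and Isl1 0.719 (0.590 to 0.914), of which only the interval of Isl1 lies below 1. For Pou4f2 and Thy1, with 1 or 2 inferred reads in each library, a difference was not detectable at this depth. Ebf1 and Nefl were lower in pHes1_EPCs, with ratios of 0.114 (0.0468 to 0.234) and 0.251 (0.0953 to 0.610), and Rbpms was higher there, with a ratio of 2.55 (1.53 to 4.48). By the 2-fold rule 1 of the 10 genes, Ebf1, was called lower in pHes1_EPCs, where 5.42% of all genes were, and none higher, where 9.85% were. Among genes with a mean of at least 1 FPKM these shares were 9.41% and 16.9%. Without the pseudocount Ebf1 and Nefl were called lower, where 8.65% of all genes were, and Rbpms higher, where 14.0% were. The median difference was -0.09.

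The other lists differed in their change with age. Over all genes 5.94% were called lower and 2.77% higher at P4 in pHes1_ENCs, and 2.57% and 4.17% in pHes1_EPCs. Of the 20 further ganglion cell factors 6 were called lower at P4 in pHes1_ENCs and none higher, with a median of -0.51. In pHes1_EPCs none was called lower and 1 higher, Myt1, at 2.92 FPKM at P1 and 15.3 FPKM at P4, with a median of -0.06. Of the 24 further axon markers 11 were called lower in pHes1_ENCs and 1 higher, with a median of -0.82. In pHes1_EPCs 2 were called lower, Ina and Stmn2, and 2 higher, Mapt (3.14 and 14.4 FPKM) and Tubb3 (20.5 and 55.4 FPKM), with a median of -0.10. Without the pseudocount 2 of the 20 factors, Eomes and Onecut1, were lower at P4 in both fractions, where 2.77% of all genes were. So were 5 of the 24 axon markers, Ina, Stmn2, Slc17a6, Chrna6 and Chrnb3. Those outside the 6 with the highest mean are named only because they passed. In pHes1_ENCs Atoh7 was at 77.3 FPKM at P1 and 6.82 FPKM at P4, and Stmn2 at 62.5 and 7.23 FPKM. Myt1 was at 48.5 and 59.3 FPKM and Satb1 at 17.9 and 16.5 FPKM, without such a drop. Nefh, the heavy neurofilament subunit, was picked after its values had been seen because it did not follow Nefl and Nefm. It was at 0.682, 0.070, 2.94 and 0.386 FPKM in P1 pHes1_ENCs, P1 pHes1_EPCs, P4 pHes1_ENCs and P4 pHes1_EPCs, and was called higher at P4 in pHes1_ENCs.

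Cells that share Isl1, Ebf1 or neurofilaments were followed by their own markers. The 11 bipolar cell markers had median changes from P1 to P4 of 0.65 in pHes1_ENCs, where the Isl1 ratio of P1 to P4 was 1.06, and 0.78 in pHes1_EPCs, where Isl1 was 2.01 times higher at P4. Of the defining ON bipolar genes, Grm6 was at 0.009 FPKM or less at P1 and at 0.580 FPKM in P4 pHes1_ENCs and 0.214 FPKM in P4 pHes1_EPCs. Trpm1 went from 0.027 to 0.014 FPKM in pHes1_ENCs and from 0.201 to 1.85 FPKM in pHes1_EPCs, and Prkca from 2.69 to 3.94 FPKM and from 4.75 to 3.68 FPKM. Of the 12 amacrine markers 7 were called lower at P4 in pHes1_ENCs, where 5.94% of all genes were, and 1, Slc6a9, higher, where 2.77% were. Their median change was -1.66. In pHes1_EPCs none was called lower, where 2.57% of all genes were, and 2, Slc6a9 and Nhlh2, higher, where 4.17% were. The median there was -0.03. The cholinergic gene Chat was at most 0.251 FPKM and listed at 0 at P4. Markers of Müller glia and progenitors were also lower at P4 in pHes1_ENCs, 8 of 11 by the 2-fold rule with a median of -1.35, while in pHes1_EPCs their median was 0.13. On the log2(FPKM + 1) scale the medians of both lists in pHes1_ENCs lay below the -1.22 of the ganglion cell genes. This order can depend on the scale, because the pseudocount shrinks the changes of the low ganglion cell genes more. With plain ratios the median of the ganglion cell genes was -2.93. The medians of both lists were not computed on that scale, so the order under plain ratios is not known here. The 6 horizontal cell markers found had median changes of -0.40 and -0.09, and 12 apoptosis genes had medians of 0.08 and 0.16. Onecut1 and Onecut2 are on the horizontal list and also among the further ganglion cell factors. The 7 rod markers were higher at P4 in both fractions, with medians of 3.26 and 4.06. The part of these cells in the values of Isl1, Ebf1, Nefl and Nefm was not tested.

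Genes of the sex chromosomes also differed between the ages, and they were looked at after Xist had appeared among the genes most like Nefl. Xist, transcribed from the inactive X chromosome of females, was at 145 FPKM in P1 pHes1_ENCs, 151 in P1 pHes1_EPCs, 28.3 in P4 pHes1_ENCs and 20.6 in P4 pHes1_EPCs, that is 5.14 and 7.34 times higher at P1. The Y-linked gene Ddx3y was at 7.93, 8.03, 15.8 and 16.9 FPKM, and Eif2s3y at 20.2, 18.0, 43.8 and 47.4 FPKM. Kdm5d and Uty were likewise lower at P1 than at P4 in both fractions. The 2 fractions of an age were alike in these genes and the 2 ages were not. The part of this difference in the change of the ganglion cell genes was not tested, and with 1 library in each group animals and age cannot be told apart.

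For Pou4f2, Isl1 and Nefl the 9327 genes with a mean of at least 5 FPKM were ranked by likeness, as the distance between log2(FPKM + 1) values over the 4 libraries after each gene was centred on its mean. The ranking rests on 4 points for a gene and is a description. Tmem8b (0.0856), Bmi1 (0.132), Kdm1a (0.133), Acrbp (0.136) and Maged2 (0.137) were nearest to Isl1. Nhs (0.798), Xist (0.802), Fat3 (0.882), Stmn2 (0.960) and Kif5a (0.984) were nearest to Nefl, at larger distances. For Pou4f2 the pseudocount of 1 sets the match, because the gene did not reach 1 FPKM in any library. Ccdc88a, the nearest gene at a distance of 0.125, was at 15.0 FPKM in P1 pHes1_ENCs and 8.59 FPKM in P4 pHes1_ENCs, while Pou4f2 was at 0.756 and 0.0261 FPKM, so this ranking says nothing of which genes changed like Pou4f2.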

How the data were processed

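RNA of sorted pHes1_ENCs and pHes1_EPCs at P1 and P4 was measured in 4 libraries. Single-end reads, 36 bases long, were aligned by the authors with TopHat 2.0.8b to the NCBI37/mm9 genome (coverage search, up to 50 positions for a read), after bcl2fastq 1.8.4 per the labels. The authors deposited gene FPKM with a 95% interval from Cufflinks 2.1.1. These values are divided by transcript length and library size and were used as deposited. Reads and counts were not used here, so depth was judged from the interval widths.

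Computations used Python 3.11.15, numpy 2.4.6, pandas 2.3.3, scipy 1.17.1 and matplotlib 3.10.9. Of 23021 lines with 22558 symbols, small RNAs (730 symbols) were left out and for a symbol with several lines the highest was taken, which left 21828 genes. Libraries were grouped by fraction and age in 4 comparisons, with a pseudocount of 1 and a threshold of 2-fold. Genes were named if they belong to the 10, if they are among the 6 of a list with the highest mean FPKM or defining genes near 0, or by likeness, and the text says where others were picked. The genes, the lists and the tests were chosen with earlier results of these data known. Of the lists, Map1b, Tfap2a, Tfap2b and Tfap2c were not matched by symbol. The alternatives were 10 other settings, among them pseudocounts, thresholds, filters and scalings, and 1 more was chosen once the data were known. The procedure was tested on simulated data, drawn from genes of at least 10 FPKM in P1 pHes1_ENCs. All of the ganglion cell genes but Nefm lie below that level, so the simulation does not cover them. Its intervals were built with the assumption used to infer reads, so it cannot check that assumption. Promoter windows are those of RefSeq. Protein comparison, ChIP-seq and RT-qPCR were not part of this work.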

Additional observations from a re-analysis of the deposited data

Results flagged for a closer look

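A difference with the opposite sign in the 2 groups set side by side was seen for 3 of the 10 genes, on the log2(FPKM + 1) scale, and with 1 library in each group the difference between the groups was not tested. The difference of pHes1_EPCs from pHes1_ENCs for Pou4f1 was -0.33 at P1 but 0.036 at P4. For Isl1, P4 minus P1 was -0.069 in pHes1_ENCs and 0.72 in pHes1_EPCs. For Ebf1, P4 minus P1 was 0.22 in pHes1_ENCs and -0.17 in pHes1_EPCs. The P4 value of Pou4f1 and the pHes1_ENC value of Isl1 changed sign under another scaling, and the counting intervals of both Ebf1 ratios hold 1.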

How the results depend on the processing

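No paired analysis was possible because each group has 1 library. At P1 the number of genes lower in pHes1_EPCs, 2 in the text, was 4 with a pseudocount of 0.1, with plain ratios, with a 1.5-fold threshold and with the rule of separate intervals added later, and 3 with equal totals and median-of-ratios scaling. The P1 median, -0.23, was -0.040 after quantile normalization, -0.40 with a pseudocount of 0.1, -0.43 with plain ratios and -0.55 with a minimum of 1 FPKM. At P4 the number lower, 1, was 2 with a pseudocount of 0.1, 1.5-fold and separate intervals and 3 with plain ratios, the number higher, 0, was 1 under all 4, and the median, -0.09, lay between -0.11 and -0.29 under the scalings, a pseudocount of 0.1 and a minimum of 1 FPKM and was -0.48 with plain ratios. In pHes1_ENCs the number lower at P4, 6, was 5 after quantile normalization and at most 8, and the median change with age, -1.22, was -2.56 with a pseudocount of 0.1 and -2.93 with plain ratios. In pHes1_EPCs the number lower at P4, 3, was 8 with a pseudocount of 0.1 and with separate intervals and 7 with plain ratios and with 1.5-fold, the number higher, 0, was 1 with plain ratios, 1.5-fold and separate intervals, and the median, -0.73, was -1.80 with a pseudocount of 0.1 and -1.72 with plain ratios. Plain ratios leave out Pou4f3 where it is listed at 0. A minimum of 1 FPKM in the higher library left 4 to 8 of the 10 genes. The other scalings moved the median of genes with a mean of at least 1 FPKM by -0.16 to -0.25 between the P4 fractions and by -0.16 to -0.29 between the ages in pHes1_EPCs. Among all called genes the share higher went from 64.5% to between 47.9% and 54.7% between the P4 fractions, from 61.9% to between 31.9% and 44.3% between the ages in pHes1_EPCs, and from 31.8% to 42.7% after quantile normalization, but 24.9% with equal totals and 28.7% with median-of-ratios scaling, between the ages in pHes1_ENCs. Depth limits what can be said of Pou4f2, Pou4f3 and Thy1 at P4, which rest on 0 to 2 inferred reads.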
